A study of Mus musculus with 8 samples.

Results

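The cytosolic ribosomal protein genes were taken as the protein-coding genes of the GENCODE M21 annotation (mouse build GRCm38) whose symbol is Rpl or Rps followed by a number and an optional suffix, together with Rplp0, Rplp1, Rplp2 and Rpsa. Kinases named after Rps6 and genes with "-ps" in the name were left out. This gave 84 genes of 21951 protein-coding genes. N6-methyladenosine (m6A) was mapped in mouse primary vascular smooth muscle cells (VSMCs) by m6A-RIP-seq, in which total RNA is broken into fragments of about 200 nt and those bound by an anti-m6A antibody are sequenced beside the input RNA. The cells were transduced with lentivirus carrying either shMettl14, directed at the methyltransferase subunit Mettl14, or a control hairpin against a plant microRNA (shCTR), so both groups carried virus and a hairpin. Each group had 2 replicates, A and B, giving 4 IP samples with 1 peak list each and 4 inputs that served as background. Nothing in the labels says that the replicates came from separate animals or cultures, so the spread between them may be technical.

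Ribosomal proteins assemble with ribosomal RNA into the small (Rps) and large (Rpl) subunits of the ribosome. Their mRNAs are short, abundant in growing cells and spliced from several small exons, and most begin with a terminal oligopyrimidine (TOP) tract through which mTOR signalling sets their translation. m6A is placed by the METTL3-METTL14 complex in the motif DRACH (A, G or T, then a purine, then AC, then any base but G), mostly in long exons and around stop codons and seldom close to exon junctions. Most ribosomal protein genes also have processed pseudogenes, copies of the mRNA inserted elsewhere in the genome.

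The number of summits per list was 11158 and 8655 for shCTR A and B, and 13675 and 9256 for shMettl14 A and B, with a median of 13 to 16 overlapping IP fragments at a summit. No list had a summit in an exon of Mettl14 (0 in each), and a peak list does not measure RNA level, so neither the knockdown nor the abundance of a ribosomal protein mRNA could be read from these data. Over all protein-coding genes, 25.3% had a summit in any list. Of the smooth muscle markers 1 of 7 did, Myh11, which was not called in shMettl14 B. So did 3 of 4 endothelial markers (Cdh5, Kdr and Pecam1, of which 2 were called in shMettl14 B). Further, 1 of 4 fibroblast markers (Pdgfra, in each list) and 1 of 4 macrophage markers (Csf1r, in shMettl14 B only) did. These counts say which transcripts carried a peak and not how many cells of a type were present, and their part in the results was not tested.

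Of the 84 ribosomal protein genes, 3 had a peak summit in an exon in any list, Rpl36al, Rpl41 and Rps28. Among all protein-coding genes the share with a summit in any list was 25.3% (5558 of 21951). Shares of coding genes throughout are over annotated genes, since a peak list does not say which were expressed in these cells. By list, 2 members had a summit in shCTR A and 1 in shCTR B, whereas shMettl14 A had 2 and shMettl14 B had 0. The shares of all protein-coding genes in those lists were 21.5%, 19.3%, 22.0% and 19.0%. No member had a summit in all 4 lists, which 16.0% of protein-coding genes did. The 3 genes held 5 exonic summits between them, and there were 0 summits in introns of members.

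**Figure D1:**
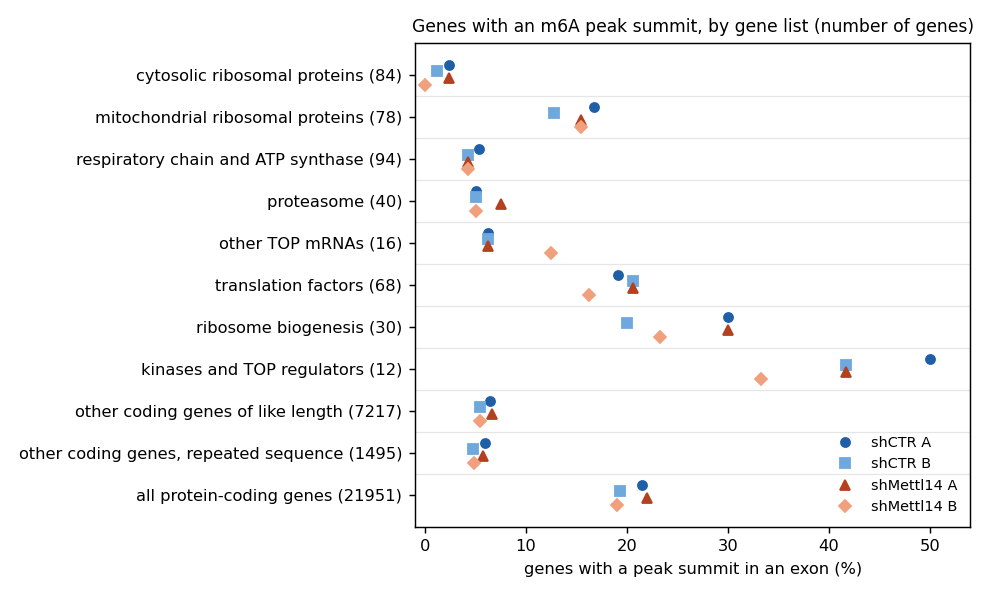
The x axis gives the percentage of genes with a peak summit in an exon, with 1 point per IP peak list, for each gene list on the y axis (number of genes in parentheses). The cytosolic ribosomal protein genes lie at 0 to 2.38%, below the points of every other list shown, while all protein-coding genes lie at 19.0 to 22.0%.

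The sequence under the Rpl36al summits is shown beside that of Rpl36a, its closest relative among the members. Rpl36al is a copy of Rpl36a, which encodes a protein of the large subunit, and its coding sequence lies in a single exon. The coding sequences of both genes were 321 nt long and shared 282 identical bases (87.9%). The DRACH site nearest to a summit (AAACC) lay 9 nt away, and the Rpl36a window at its place spans an intron. The next site, printed here, lay 15 nt from the nearest Rpl36al summit (chr12:69182971-69182995, GRCm38, minus strand), and the same place in the Rpl36a coding sequence (chrX:134586543-134586567, plus strand) also held DRACH. In both windows of 25 nt, written 5′ to 3′ in the sense of the mRNA, the DRACH motif is in capitals.
Rpl36al: tacggtgggcAGACAaagccaatct
Rpl36a: tatggtgggcAGACTaagcctattt
The windows agreed at 21 of 25 bases. The A of the motif stood 182 nt from the nearest exon junction in Rpl36al and 24 nt from it in Rpl36a. Rpl36al had a summit in 3 lists and Rpl36a in none.

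Rpl36al (ENSMUSG00000049751.6, chromosome 12, 69182731 to 69184083, minus strand) was the only member with a summit in more than 1 list. In shCTR A its interval ran from 69182906 to 69183092 with the summit at 69182968, where 32 fragments stood over a background of 3.56 and the deposited fold enrichment was 7.24. In shCTR B the interval was 69182864 to 69183118 with the summit at 69182962, 31 fragments, a background of 2.81 and a fold enrichment of 8.40. In shMettl14 A it was 69182869 to 69183081 with the summit at 69182916, 31 fragments, a background of 4.51 and a fold enrichment of 5.81. The peak was thus called in 3 lists, and shMettl14 B had no interval there. The percentile of its fold enrichment within the list was 42.1 in shCTR A, 53.7 in shCTR B and 26.3 in shMettl14 A. These lists differ in length, shMettl14 A being the longest, so the percentiles were not compared.

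All 3 Rpl36al summits lay in coding sequence, 98, 144 and 150 nt before the first base of the stop codon and 197 to 249 nt from the only exon junction, in an exon of 425 nt. The same bases belong to an exon of Gm49383, a protein-coding gene model on the same strand (chromosome 12, 69182834 to 69197104), and a peak list does not say which transcript the fragments came from. Of the 50-nt words of the mRNA that cover the summit, 6 of 50 in shCTR A and 0 of 50 in shCTR B and in shMettl14 A were found nowhere else in the genome. The authors kept uniquely mapped reads only, and 31 or 32 fragments were piled up there. Neither the read length nor the options of the peak caller are given in the sources used here. Whether fragments counted there were placed by sequence outside the summit is therefore not known. In the interval files that the authors deposited as the overlap of both replicates, Rpl36al was the 1 member overlapped in shCTR (69182863 to 69183068, which reaches beyond the shCTR A interval), where 17.3% of protein-coding genes were overlapped. The shMettl14 file overlapped 0 members and 17.2% of protein-coding genes.

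Rpl41 (ENSMUSG00000093674.7, chromosome 10, 128548114 to 128549305, minus strand) encodes a very small protein of the large subunit. Its single summit was in shCTR A at 128548312, in an interval of 128548251 to 128548404. The fold enrichment was 2.47, which only 4 summits of that list undercut. A total of 33 fragments stood there over a background of 12.8, and only 44 of the 11158 summits of the list (0.394%) had a background at least as high. The −log10 q-value was 3.17, against a lowest value of 2.01 in the list. The other 3 lists had no interval in Rpl41, so its single call was not repeated in the second shCTR replicate.

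The Rpl41 summit lay in the 3′ UTR, 36 nt past the first base of the stop codon and 139 nt from the nearest exon junction. A GGACT site, a frequent form of DRACH at m6A sites, had its A 3 nt from the summit (chr10:128548303-128548327, GRCm38, minus strand). The window is printed to show the motif under the peak, with the motif in capitals.
Rpl41: acaagctatcGGACTgtgtgctgcc
None of the 50-nt words over the summit was unique in the genome (0 of 50). As for Rpl36al, whether its fragments were placed by sequence outside the summit is not known.

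Rps28 (ENSMUSG00000067288.13, chromosome 17, minus strand), which encodes a protein of the small subunit, had 1 summit, in shMettl14 A at 33819106 (interval 33819074 to 33819298). It held 6 fragments over a background of 0.292, with a fold enrichment of 5.42, a percentile of 20.2 and a −log10 q-value of 4.35. The summit lay in an alternative last exon (33819027 to 33819218), 3.93 kb beyond the end of the transcript chosen for the gene (33823036 to 33824562). An exon of Kank3, which is on the opposite strand, covers the same base, and the strand of the fragments is not given in the peak list. Peaks of the principal Rps28 transcript were therefore not seen in any list.

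**Figure D2:**
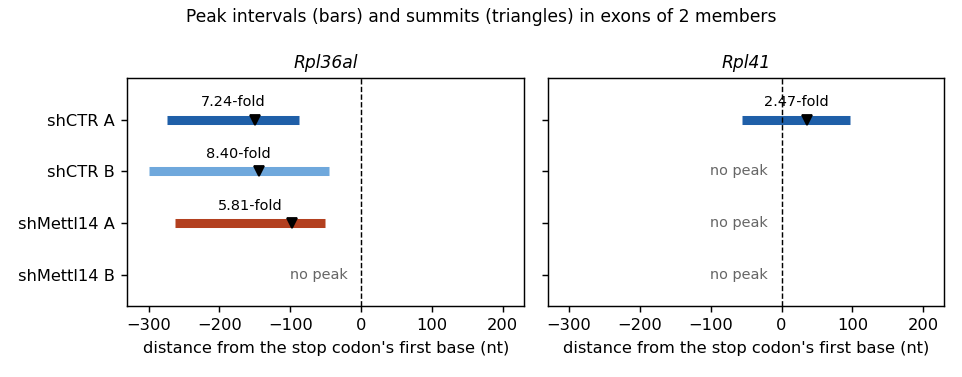
Bars are the deposited peak intervals and triangles their summits in Rpl36al (left) and Rpl41 (right), by IP peak list, against distance in nt from the first base of the stop codon (dashed line), with the deposited fold enrichment above each bar. The 3 Rpl36al intervals overlap within the coding sequence, and the Rpl41 interval covers the stop codon with its summit 36 nt past it.

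In the chosen transcripts there were 4 summits at 2 sites, 3 of them the Rpl36al peak in 3 lists. All 4 lay over 100 nt from an exon junction, all 4 within 200 nt of the first base of the stop codon, and all 4 had DRACH within 50 nt. Among all summits in exons of coding transcripts, 94.7% to 96.7% per list lay over 100 nt from a junction, 25.4% to 27.1% within 200 nt of the stop codon and 94.9% to 96.1% had DRACH within 50 nt, so most summits of any gene had the first and the third feature. In transcripts as short as Rpl41 (509 nt) and Rpl36al (526 nt), much of the sequence lies within 200 nt of the stop codon.

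The other 81 members had no summit in any list. Of the large subunit these included Rpl10, Rpl10a, Rpl12, Rpl13, Rpl13a, Rpl14, Rpl15, Rpl17, Rpl18, Rpl19, Rpl21, Rpl22, Rpl23, Rpl23a, Rpl24, Rpl26, Rpl27, Rpl27a, Rpl28, Rpl29, Rpl3, Rpl30, Rpl31, Rpl32, Rpl34, Rpl35, Rpl35a, Rpl36, Rpl36a, Rpl37, Rpl37a, Rpl38, Rpl39, Rpl4, Rpl6, Rpl7, Rpl7a, Rpl8 and Rpl9, so that 1 of 41 core genes of this subunit had a summit. Of the small subunit they included Rps10, Rps12, Rps13, Rps14, Rps15, Rps15a, Rps16, Rps18, Rps19, Rps2, Rps20, Rps21, Rps23, Rps24, Rps25, Rps26, Rps27, Rps29, Rps3, Rps3a1, Rps4x, Rps6, Rps7, Rps9 and Rpsa, so that 1 of 30 had one. Rplp0, Rplp1 and Rplp2, which form the stalk that recruits translation factors, had none (0 of 3). Neither Rpl5 nor Rpl11 had one, whose proteins bind 5S RNA and restrain Mdm2 when ribosome assembly fails. Rps27a, which encodes a ubiquitin fused to a ribosomal protein, had none either.

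Among the 7 paralogues of core genes, Rpl36al had a summit and Rpl10l, Rpl22l1, Rpl39l, Rpl3l, Rpl7l1 and Rps27l did not. Like Rpl36al, Rpl10l holds its coding sequence in 1 exon, and its transcript has no junction at all. It had 1023 bases over 100 nt from a junction, against 121 in Rpl10, and neither gene had a summit. Rpl7l1 had 1750 such bases and Rpl7 had 208, again with no summit in either. Rpl10l and Rpl39l are known mainly from testis, and whether they were expressed in these cells is not given by a peak list.

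Annotated pseudogenes named after a ribosomal protein gene numbered 301, the most for Rpl31 (24) and Rps12 (23). Of these, 1 had a summit in shCTR A (Rps19-ps3) and 1 in shMettl14 A (Rpl27-ps1), and the B lists had 0. Neither of their parent genes, Rps19 and Rpl27, had a summit. Whether reads of the members were placed in pseudogenes was not tested.

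Next, the members were described by the structure of their transcripts, using for each gene 1 coding transcript. The median length was 802 nt (345 to 5179) against 2391 nt over all 21581 coding genes with a complete coding transcript. The median coding sequence was 465 nt against 1188 nt, and the median 3′ UTR was 90 nt against 623 nt. The longest exon of a member had a median of 270.5 nt against 1079 nt. The annotated 3′ UTR was at least 500 nt long in 18 members and over 1000 nt in 9, the longest being those of Rps15a (4728 nt) and Rps20 (3167 nt), and whether these ends were used in VSMCs was not measured here.

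Bases over 100 nt from an exon junction numbered 186.5 in the median member, against 1237 in the median coding gene. As a share of the transcript they made up 23.5% and 61.6%. In 7 members no base lay that far from a junction (Rpl23a, Rpl35a, Rpl38, Rpl9, Rps12, Rps21 and Rps27), and 43 members had at most 200 such bases. DRACH itself was present in each of the 84 transcripts. The median member had 14 DRACH sites against 48 in the median coding gene, and per kb it had 18.03 against 20.28. A median of 4 DRACH sites per member lay over 100 nt from a junction, against 24 over all coding genes. Such a site was present in 65 of 84 members, and a GGACT over 100 nt from a junction in 24.

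The share of other coding genes with a summit in any list went up with the number of bases over 100 nt from a junction. It was 2.53% of 356 genes with 1 to 100 such bases, 4.34% of 1797 genes with up to 400 and over 200, 10.5% of 3428 genes with up to 800, 17.8% of 6291 genes with up to 1600 and 44.7% of 8758 genes above that. In the first of these ranges 1 of 22 members had a summit and in the second 2 of 13. The 1 was Rps28, whose summit lay outside the transcript that was measured, so neither this range nor its share of unique words describes the sequence under the summit. Between them, with up to 200 and over 100 such bases, 0 of 14 members and 2.91% of 826 other genes had one. In the 3 highest ranges, where the shares of other genes were largest, 0 of 17, 0 of 7 and 0 of 4 members had a summit, and 18 of these 28 members have one of the long annotated 3′ UTRs. The 4 members of the highest range were Rpl22, Rpl7l1, Rps15a and Rps20. These shares are a description, since genes are not replicates.

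**Figure D3:**
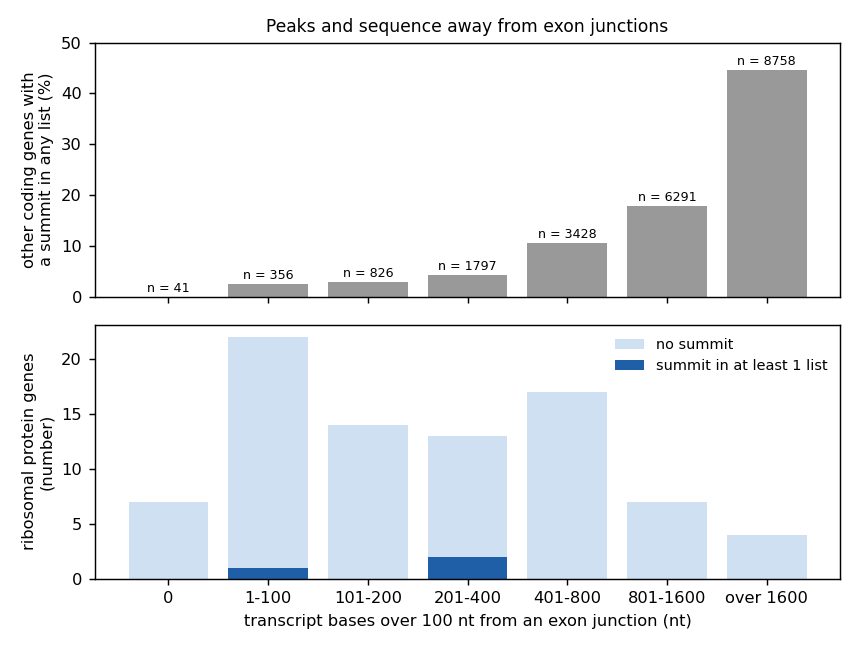
Genes are binned along the x axis by the number of transcript bases over 100 nt from an exon junction. Upper bars give the percentage of other coding genes with a summit in any list (n above each bar), rising from 0 to 44.7%, and lower bars count ribosomal protein genes, with the 3 that had a summit in dark blue.

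Because the authors kept only uniquely mapped reads, each transcript was cut into all its words of 50 nt and each word was looked up in the genome. The median member had 46.1% of its words at no other place, against 98.9% in the median coding gene. Within the coding sequence alone the medians were 11.6% and 98.5%. The share was under 50% in 49 of 84 members and under 10% in 11, while 1495 of 21497 other coding genes were under 50%. Rps27 was the lowest member at 0.338%. At the other end stood members such as Rpl39l (99.3%), Rpl3l (98.7%), Rps3 (95.5%), Rpl22 (93.7%), Rps15a (92.9%) and Rpl8 (90.6%). The value of Rps15a rests on its long annotated 3′ UTR, since its coding sequence alone was at 15.4%.

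Of the 35 members with at least 50% unique words, 0 had a summit in any list, whereas Rpl41 (45.9%), Rpl36al (30.0%) and Rps28 (19.5%) fell among the 49 below. Rpl10l, Rpl39l and Rpl3l were among the 35, and whether they were expressed in these cells is not given by a peak list. By the coding sequence alone, 15 members had at least 50% unique words, and 1 of them, Rpl41 (55.4%), had a summit. Among other coding genes a summit was found in 28.6% of those at 90% or more, 15.1% of those from 50% to 90% and 7.90% of those from 10% to 50%. Rpl36al and Rpl36a also differed in this measure, with 30.0% and 6.91% unique words, and the part of this difference in the call was not tested. With at least 50% unique words and over 400 bases over 100 nt from a junction there were 21 members, 0 of them with a summit. There were 17330 other genes in this cut, of which 30.5% had one. Members and other genes were not matched for such bases within it. Of the 28 members with over 400 such bases at any share of unique words, 17 had up to 800 and 4 over 1600. The other genes in those ranges numbered 3428 and 8758. Of the 21 members, 16 have an annotated 3′ UTR of at least 500 nt, so the 0 of 21 depends on ends whose use in VSMCs was not measured. The 21 also include Rpl10l and Rpl39l.

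**Figure D4:**
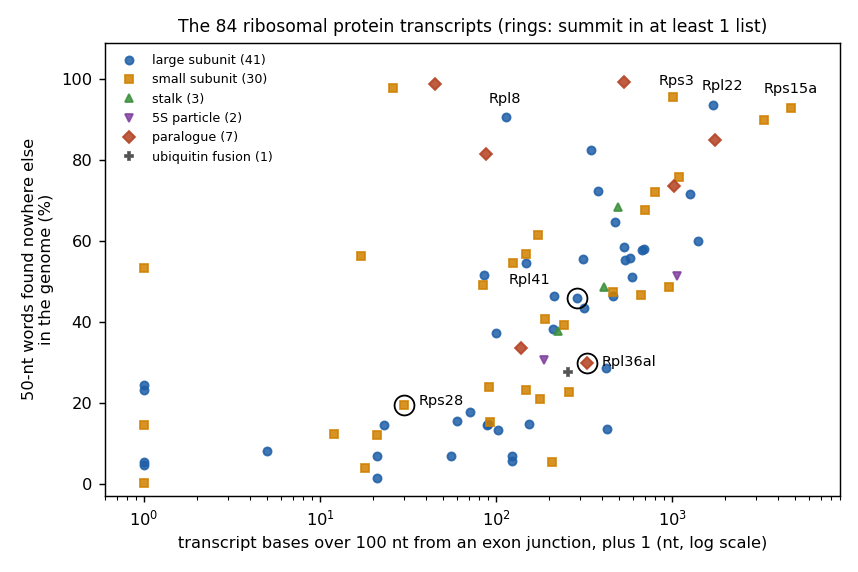
Each point is 1 of the 84 ribosomal protein transcripts, by bases over 100 nt from an exon junction plus 1 (x axis, log scale) and percentage of 50-nt words found nowhere else in the genome (y axis), with the role of the protein as colour and shape. The 3 ringed genes with a summit lie below 50% on the y axis, and the members at the upper right have none.

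Several members without a peak held a GGACT over 100 nt from a junction in sequence that every 50-nt word placed uniquely. The 3 printed here carried the motif and went uncalled in all 4 lists. They were chosen for display after their values had been seen. In Rps3, which encodes a small subunit protein at the mRNA entry channel, the site lay 892 nt past the first base of the stop codon and 886 nt from a junction (chr7:99478053-99478077, minus strand), in an annotated 3′ UTR of 1059 nt whose use in VSMCs was not measured. In Rpl22 it lay 120 nt past the stop codon and 262 nt from a junction (chr4:152332530-152332554, plus strand), and in Rpl14 56 nt past it and 353 nt from a junction (chr9:120574436-120574460, plus strand). The motif is in capitals, the build is GRCm38 and each line is in the sense of the mRNA.
Rps3: cgtggggtaaGGACTtaagttactt
Rpl22: gaaatgacagGGACTttaactgggc
Rpl14: tctcatgtgtGGACTctaagcttgt
A site without a call did not pass the caller's threshold at this depth, and it is not shown to be free of m6A.

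Other gene sets of cell growth were set beside the members. Mitochondrial ribosomal proteins, which build the separate ribosome of mitochondria, had a summit in any list in 14 of 78 genes (17.9%, against 25.3% of all protein-coding genes) and in all 4 lists in 8. Mrpl41, with a transcript of 776 nt and 576 bases over 100 nt from a junction, had its strongest summit at percentiles 86.2 and 97.6 of the shCTR lists and 95.1 and 91.0 of the shMettl14 lists (A, then B). The median cytosolic member had 186.5 such bases. Respiratory chain and ATP synthase genes had a summit in 5 of 94 (5.32%). They were taken by symbol, which brings in assembly factors such as Ndufaf4 and Ndufaf1, both found in all 4 lists. Proteasome genes, also taken by symbol, had a summit in 3 of 40 (7.50%), Psmd7 and Psmd5 being the 2 found in all 4 lists. The cytosolic set stood at 3.57%. Other coding genes with a transcript of 491 to 1783 nt, the 10th to 90th percentile of the members, stood at 8.13% of 7217. Those with a coding sequence of 283 to 809 nt, matched in the same way, stood at 13.6% of 5130, and other coding genes under 50% unique words at 7.56% of 1495. These reference sets were not limited to genes expressed in VSMCs, and no test of the shares was made.

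Genes that regulate or accompany the ribosomal protein mRNAs were described in the same way. Among 12 kinases and regulators of TOP mRNAs, 6 had a summit in any list (50%, against 25.3% of all protein-coding genes) and 4 in all lists. Their median transcript had 2906 bases over 100 nt from a junction, a range in which 44.7% of other coding genes had a summit. Larp1, which binds TOP mRNAs, stood at percentiles 96.0, 94.5, 94.1 and 94.4 in shCTR A, shCTR B, shMettl14 A and shMettl14 B, and Rps6kb1, the kinase of Rps6, at 97.8, 77.9, 94.1 and 93.4. Mtor was found in all 4 lists as well, at 15.6, 69.9, 71.6 and 18.1. Of 30 ribosome biogenesis genes 9 had a summit (30.0%), with Grwd1, Rrs1 and Bysl the highest of the 6 found in all lists. Of 68 translation factors 17 had one (25%), close to the share of all genes, although the highest of them, Eif2ak2 and Eif2ak3, are kinases of a factor and not factors themselves.

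Of 16 other TOP mRNAs 2 had a summit in any list (12.5%, against 25.3% of all protein-coding genes). All 4 lists held a summit for 6.25% of them, against 16.0% of all protein-coding genes. This was only Eef2, the elongation factor that moves the ribosome along the mRNA. Its strongest summit had a fold enrichment of 4.29, 4.14, 4.91 and 5.01 over backgrounds of 12.3, 10.6, 7.97 and 5.58 fragments in shCTR A, shCTR B, shMettl14 A and shMettl14 B. The background at the Rpl41 summit was 12.8. Whether a high background kept members from being called was not tested. Summits with a background of at least 10 fragments numbered 126, 46, 47 and 12 in the same order, in 48, 23, 20 and 5 coding genes, and Rpl41 in shCTR A was the 1 ribosomal protein gene among them. Their lowest fold enrichment was 2.17 to 2.95.

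Finally, the shRNA groups were compared. The number of ribosomal protein genes with a summit averaged 1.5 ± 0.707 in the shCTR lists and 1 ± 1.41 in the shMettl14 lists (SD, n = 2 each). The difference of −0.5 genes did not exceed the SD of either group, with an exact two-sided permutation p of 1.0 for 2 lists against 2, where no p under 0.333 can be reached. Without shMettl14 B the difference turned to 0.5, without shMettl14 A it was −1.5, without shCTR B −1 and without shCTR A 0. A change of rank after knockdown could not be tested, since 0 of the 3 regions in exons of members were found in all 4 lists.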

How the data were processed

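Per the labels and methods, reads were aligned to mm10 (STAR is named), uniquely mapped reads were kept with SAMtools, and the authors called peaks of each IP against its input with MACS2 (version, options and read length not given in the sources used here). Each deposited list gives a summit, its fold enrichment (a ratio of IP over local background), and p-values and q-values as −log10. Replicates were not pooled. The authors also deposited 2 interval files of overlapping replicates. All 6 files were used, and no peak end lay beyond a GRCm38 chromosome.

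The members and lists were chosen with earlier results of these data known. Summits were counted in exons of GENCODE M21 genes. Structure used the transcript with the longest coding sequence (ties went to a RefSeq match, then support level). IP pileup and background were solved from fold and p-value, and a whole pileup matched −log10 p within 0.001 in 100% of summits. Each pileup comes from a single IP library, so its spread was not measured. All 22 chromosome sequences were searched for 50-nt words. The scripts were tested on simulated data (Python 3.11.15, numpy 2.4.6, scipy 1.17.1, numba 0.67.0). Every member with a summit was named, and of each comparison list at most 3 genes, those found in all 4 lists with the highest mean percentile. Other TOP mRNAs, pathway and marker lists were fixed by name. The study's methods state a depth of single-end reads per sample, but the reads that each list rests on were not counted here, so depth is given by the pileups. Alternatives are given in the closing section. Some items, including some members by name, are not reported here.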

Additional observations from a re-analysis of the deposited data

How the results depend on the processing

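The count of 3 ribosomal protein genes with a peak in any list was 3 by interval overlap of at least 1 bp and 2 with the exons of 1 transcript per gene or with symbols of a single suffix letter or none. It was 1 with a −log10 q-value of at least 5 (Rpl36al), 1 with equal numbers of summits per list (Rpl36al), 1 when the summit had to lie in exons of 1 gene only (Rpl41) and 1 when both lists of an shRNA had to hold a summit (Rpl36al). Leaving out each list in turn gave 2 to 3 genes. The difference between shMettl14 and shCTR (−0.5 genes) was 0 with symbols of a single suffix letter or none, which leave out Rpl36al, and ranged from −1.5 to 0.5 when each list was left out in turn. With the exons of 1 transcript per gene, an alternative chosen after seeing the data that leaves out the Rps28 summit, it was −1.0 (exact two-sided permutation p 0.667), more than the SD of 0.707 in either group. With the replicate letter as a block it was −0.5, with differences of 0 within A and −1 within B. Whether samples with the same letter were prepared together is not given in the labels, so a pairing by letter is not known. The median share of unique words (46.1%) was 37.2% with words of 36 nt and 52.0% with words of 75 nt. The median of 186.5 bases over 100 nt from a junction was 58.0 over 200 nt (all coding genes 1036) and 322 with the longest coding transcript of each gene (all coding genes 1580). The planned rank test and its alternatives gave no value, since no member region was in all 4 lists. A missing call says only that a site did not pass the caller's threshold at these pileups.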
